A study of Saccharomyces cerevisiae with 6 samples.

Results

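Amino acid permeases are membrane proteins that carry amino acids into the yeast cell, and the 10 described here are GAP1, AGP1, BAP2, BAP3, TAT1, TAT2, GNP1, DIP5, HIP1 and CAN1. They were taken by gene name from a table of 7126 genes, and all 10 passed the count minimum of 10 counts in at least 3 libraries, as did 6330 genes in all. RNA-seq counts were made from BY4741, a wild-type haploid strain of baker's yeast that lacks HIS3, LEU2, MET17 and URA3 function. The cells were grown in SC, a defined medium, with 3 biological replicates on glucose and 3 on glycerol. Both groups carry the same genotype, the labels name no agent, and the cell wall was digested briefly with an enzyme in both before RNA was taken. The study's general methods describe cultures in rich medium held at a mid-log density, and the account of the RNA-seq cultures in SC names no density, amino acids or nitrogen source. The part of growth phase in the results was not tested. RNA was taken from whole cultures, so that a change in every cell and a change in some of the cells cannot be told apart either.

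Signals of 2 kinds are known to set which permeases a yeast cell makes. The SPS sensor, built from Ssy1, Ptr3 and Ssy5 at the plasma membrane, responds to amino acids outside the cell and triggers the cleavage of the factors Stp1 and Stp2, which then enter the nucleus and switch on permease genes through promoter elements that contain CGGC. The GATA factors Gln3 and Gat1 act when preferred nitrogen sources run short, bind GATAA sequences, most of all GATAAG, and release genes from nitrogen catabolite repression. By general knowledge of yeast genes, AGP1, BAP2, BAP3, TAT1, TAT2, GNP1 and DIP5 were placed in an SPS-regulated group of 7, GAP1 and CAN1 in a nitrogen-regulated group of 2, and HIP1 in neither. The groups are not exclusive, since AGP1 and DIP5 are also known to respond to nitrogen supply.

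The promoters were searched for these sequences, and the stretch with the most matches is printed below for the permeases on which the results turn. Within the 600 bases before each start codon, matches to GATAA, to GATAAG and to CGGC were counted on both strands, where each GATAAG is also a GATAA, and the window of TAT1 has 200 bases under other genes. The stretches are 200 bases long, read 5′ to 3′ along the gene's strand from the R64 genome of RefSeq, and capitals mark the matches, which overlap in places. The stretches of GAP1 (chrXI:514594-514793, plus strand) and CAN1 (chrV:33613-33812, minus strand) stand for the nitrogen-regulated permeases. Those of DIP5 (chrXVI:40453-40652, plus strand), AGP1 (chrIII:78305-78504, minus strand), BAP2 (chrII:376031-376230, minus strand) and BAP3 (chrIV:550860-551059, minus strand) stand for the SPS-regulated permeases, from the largest rise to a fall.
GAP1: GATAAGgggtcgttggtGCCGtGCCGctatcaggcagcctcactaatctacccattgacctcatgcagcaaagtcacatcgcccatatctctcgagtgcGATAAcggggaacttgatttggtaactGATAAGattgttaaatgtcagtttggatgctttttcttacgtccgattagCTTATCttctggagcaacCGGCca
CAN1: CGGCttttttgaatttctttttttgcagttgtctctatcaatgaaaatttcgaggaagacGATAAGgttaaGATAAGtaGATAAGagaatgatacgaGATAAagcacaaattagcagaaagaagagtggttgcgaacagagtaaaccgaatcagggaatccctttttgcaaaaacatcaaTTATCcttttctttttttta
DIP5: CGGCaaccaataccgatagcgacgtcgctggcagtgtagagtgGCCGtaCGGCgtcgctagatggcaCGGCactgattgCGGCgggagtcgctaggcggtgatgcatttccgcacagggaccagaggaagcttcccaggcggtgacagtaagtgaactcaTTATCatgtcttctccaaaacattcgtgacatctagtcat
AGP1: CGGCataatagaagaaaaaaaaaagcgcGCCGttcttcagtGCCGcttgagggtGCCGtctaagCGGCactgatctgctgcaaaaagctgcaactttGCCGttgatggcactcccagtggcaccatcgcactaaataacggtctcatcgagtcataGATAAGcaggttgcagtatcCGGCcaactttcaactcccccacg
BAP2: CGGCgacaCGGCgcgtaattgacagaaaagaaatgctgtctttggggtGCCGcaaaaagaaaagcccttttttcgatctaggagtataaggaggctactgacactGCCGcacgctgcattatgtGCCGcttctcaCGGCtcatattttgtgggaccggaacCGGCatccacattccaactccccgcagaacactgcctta
BAP3: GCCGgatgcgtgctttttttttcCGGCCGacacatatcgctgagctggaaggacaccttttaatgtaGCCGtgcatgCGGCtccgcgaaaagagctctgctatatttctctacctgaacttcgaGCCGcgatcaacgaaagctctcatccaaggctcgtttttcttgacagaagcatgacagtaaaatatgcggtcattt

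GATAAG was found 5 times before GAP1, 3 times before CAN1 and 2 times before AGP1, and not in the windows of the other permeases. Of 5999 promoters of the same length, 26.8% held it at least once and 4.92% at least 2 times. The stretch of CAN1 has its 3 matches close together, starting at positions -286, -275 and -267 from the start codon. CGGC was found 9 times before AGP1, 8 times before each of BAP2 and TAT1, 7 times before each of BAP3 and GNP1, 5 times before DIP5 and 3 times before TAT2. GAP1 had 4 matches and CAN1 and HIP1 had 1 each, while 75.3% of all promoters had at least 1, 5.77% at least 5 and 1.35% at least 7. GATAA, with or without the final G, was found 6 times before each of GAP1 and CAN1, 4 times before DIP5, 3 times before each of AGP1 and TAT1 and 2 times before HIP1, and not before BAP2, BAP3, TAT2 and GNP1. Of all promoters, 84.0% held GATAA at least once and 12.8% at least 4 times, counted in the same way. These counts describe letters in a window and do not show that a factor bound there.

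The libraries held between 15289163 and 20038052 counts on genes, and each permease received between 285 and 30990 counts in a library. Levels are given as normalized CPM, which are counts per 1000000 of the library total times its TMM factor, edgeR's correction for the make-up of a library. All log2 fold changes are glycerol over glucose, and adjusted p-values are those of the edgeR quasi-likelihood F test, adjusted by Benjamini-Hochberg over the 6330 genes, with a threshold of 0.05. The conditions differ widely, with 41.7% of the tested genes higher and 40.1% lower in glycerol, and these shares are the background for every count below. Scaling matters here, since over all tested genes the median log2 fold change lay at 0.03 under TMM and at 0.52 under library totals alone, which gave 3605 genes higher and 1652 lower in place of 2637 and 2539. A fold change under TMM thus says how a transcript moved against a trimmed average over genes. With library totals alone it says how the transcript moved against all counts on genes. As a check of the labels, the glycerol kinase gene GUT1 was higher in every glycerol library and the glucose transporter gene HXT3 lower, with log2 fold changes of 3.14 and -6.45. LEU2, URA3 and MET17, which are deleted in BY4741, had 0 counts in every library, which allows up to 3 counts in each. The a-cell receptor gene STE2 fell from 1176 ± 272 in glucose to 51.5 ± 1.95 (normalized CPM, SD, n = 3 each), and the alpha-cell receptor gene STE3 lay at 7.48 ± 1.86 and 14.4 ± 1.89.

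Of the 10 permease genes, 7 had more transcript in glycerol, 2 had less and 1, HIP1, did not pass the threshold, where 81.8% of all tested genes passed it in either direction. In normalized CPM, for none of the 10 did a glycerol library fall within the range of the glucose libraries, against 83.8% of all tested genes without overlap. With 10 genes, counts of 9 and 10 are not set apart from these shares, and the permeases differ from each other in the size and the direction of the change. Of the 7 SPS-regulated permeases 5 were higher and 2 lower, and both nitrogen-regulated permeases were higher. Summed over the 10 genes, normalized CPM came to 2297 ± 18.5 for glucose and 4464 ± 281 for glycerol (SD, 3 libraries each). The median log2 fold change was 2.49 for the 2 nitrogen-regulated permeases and 0.62 for the 7 SPS-regulated permeases, beside 0.03 for all tested genes. The SPS-regulated group spanned -0.60 to 4.68 and held the largest rise and both falls. No test was made of the difference between the groups, since they hold few genes chosen with earlier results known.

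**Figure D1:**
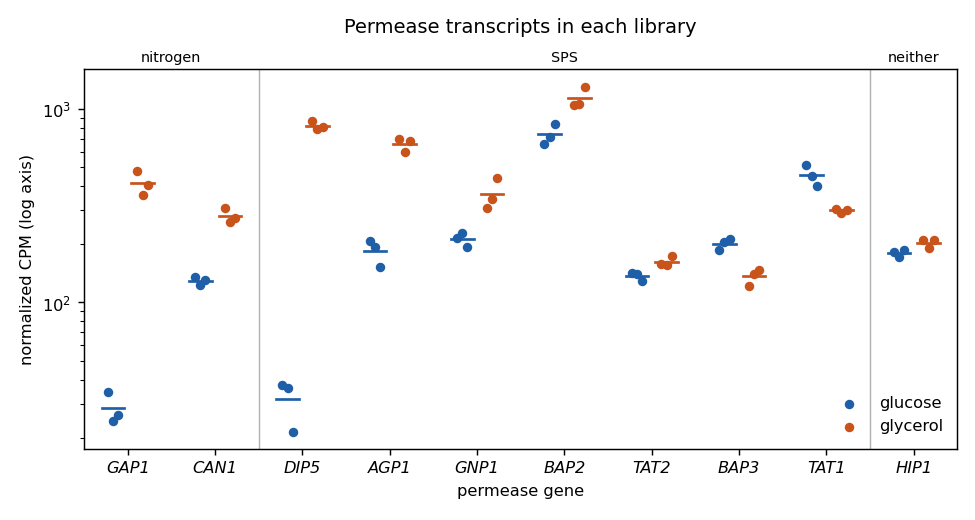
Normalized CPM on a log axis for each permease gene, with 1 point per library, a line at the mean of 3 glucose (blue) or 3 glycerol (orange) libraries, and the regulatory groups named above. GAP1 and DIP5 rise from at most 37.4 to at least 360.9 normalized CPM, while BAP3 and TAT1 are lower in all 3 glycerol libraries.

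GAP1 (YKR039W, chromosome XI from 515063 to 516871, R64 build as all positions here) encodes the general amino acid permease, which takes up nearly all amino acids and is known as a marker of nitrogen derepression. Its transcript stood at 34.4, 24.4 and 26.3 normalized CPM in the glucose libraries and at 480.0, 360.9 and 402.6 in the glycerol libraries. The lowest glycerol library was thus far above the highest glucose library. The log2 fold change was 3.87 (standard error 0.155, adjusted p = 7.5e-12), a fold of 14.6, and 97.3% of all tested genes had a lower value. CAN1 (YEL063C, chromosome V from 31694 to 33466), the arginine permease, was at 135.7, 122.5 and 130.5 normalized CPM in glucose and at 305.8, 261.2 and 272.1 in glycerol. Its rise was smaller than that of GAP1, at 1.11 on the log2 scale (standard error 0.105, adjusted p = 1.0e-07), with all 3 glycerol libraries above all 3 glucose libraries. Counts of GAP1 per kilobase were 0.213 times those of CAN1 in glucose and 1.45 times in glycerol, so that the order of the pair turned over.

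DIP5 (YPL265W, chromosome XVI from 41043 to 42869), which encodes the permease for the acidic amino acids glutamate and aspartate, had the largest change of the 10. It was at 37.4, 36.2 and 21.6 normalized CPM in glucose and at 861.4, 782.2 and 805.9 in glycerol. Glucose replicate 3 was the lowest of its group, and the groups were far apart. The log2 fold change was 4.68 (standard error 0.186, adjusted p = 6.8e-12), a fold of 25.7, and the gene ranked 99 of the 6330 by its rise. AGP1 (YCL025C, chromosome III from 76018 to 77919), a permease of broad range with a preference for neutral amino acids such as asparagine and glutamine, was at 206.9, 194.1 and 151.7 normalized CPM in glucose and at 696.1, 596.1 and 678.9 in glycerol. That is 1.83 on the log2 scale (standard error 0.132, adjusted p = 3.8e-09). DIP5 and AGP1 were the SPS-regulated permeases with the highest fold changes. The part of nitrogen supply in these rises was not tested.

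**Figure D2:**
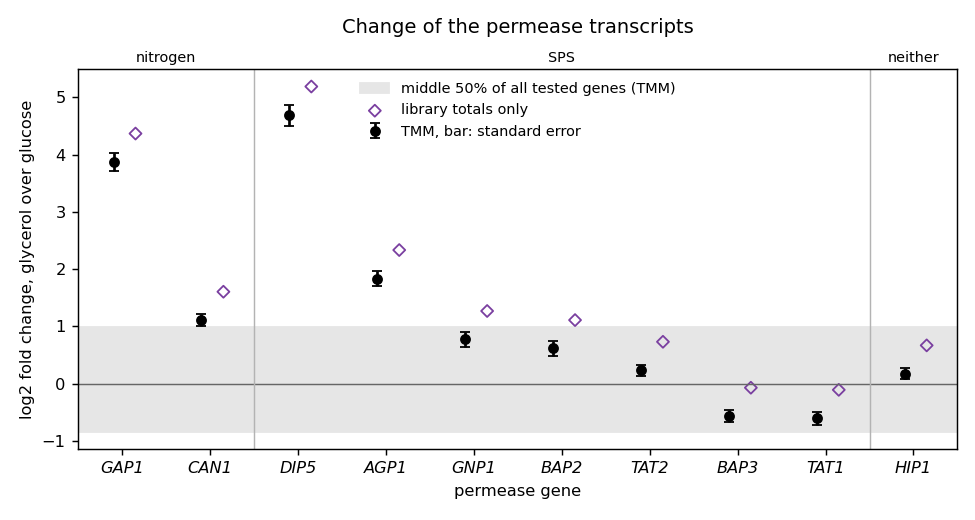
Log2 fold change of glycerol over glucose for each permease with TMM scaling (black, bars show the standard error) and with library totals alone (open diamonds), and in grey the range from the lower to the upper quartile of all tested genes. GAP1, DIP5, AGP1 and CAN1 lie above the upper quartile of 0.98, the other 6 lie within the grey range under TMM, and BAP3 and TAT1 lie near 0 with library totals alone.

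GNP1 (YDR508C, chromosome IV from 1466453 to 1468444) encodes the high-affinity glutamine permease and is the closest relative of AGP1 among the 10, with 71.2% identical bases in the aligned coding sequence. It was at 216.4, 227.7 and 193.4 normalized CPM in glucose and at 305.8, 342.8 and 441.0 in glycerol, with no overlap and the widest spread at glycerol replicate 3. The log2 fold change was 0.77 (standard error 0.133, adjusted p = 6.9e-05). YDR509W overlaps 219 bases of GNP1 in the table, and without strand its reads cannot be told apart there. BAP2 (YBR068C, chromosome II from 373861 to 375690), a permease for leucine, isoleucine and valine, was the highest of the 10 in both groups. It stood at 661.2, 716.8 and 834.2 normalized CPM in glucose and at 1041, 1053 and 1303 in glycerol, which is 0.62 on the log2 scale (standard error 0.129, adjusted p = 4.0e-04). BY4741 carries a deletion of LEU2 and so depends on leucine from the medium. TAT2 (YOL020W, chromosome XV from 286172 to 287950), the high-affinity tryptophan permease, was at 142.7, 141.0 and 129.6 normalized CPM in glucose and at 157.7, 155.8 and 173.5 in glycerol. Its change of 0.24 on the log2 scale (standard error 0.0993, adjusted p = 0.0388) is the smallest among the 10 that passed the threshold, and the adjusted p was above it, at 0.0781, 0.0913 and 0.0993, without glucose replicate 2, glucose replicate 3 or glycerol replicate 3.

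BAP3 and TAT1 went the other way. BAP3 (YDR046C, chromosome IV from 548762 to 550576), a further permease for branched-chain amino acids and the closest relative of BAP2 at 70.0% identical bases, was at 186.1, 206.4 and 212.1 normalized CPM in glucose and at 122.2, 140.5 and 146.7 in glycerol. All glycerol libraries lay below all glucose libraries, and the log2 fold change was -0.56 (standard error 0.107, adjusted p = 1.8e-04). TAT1 (YBR069C, chromosome II from 376574 to 378433), a permease for tyrosine, tryptophan and valine, was at 515.1, 448.7 and 398.4 normalized CPM in glucose and at 304.3, 290.7 and 301.6 in glycerol. Its log2 fold change was -0.60 (standard error 0.115, adjusted p = 1.8e-04). Both falls depend on the scaling. With library totals alone the log2 fold changes were -0.07 (adjusted p = 0.585) for BAP3 and -0.11 (adjusted p = 0.416) for TAT1. The glucose and glycerol libraries of both genes then overlapped. TAT1 and BAP2 are neighbours on chromosome II, on the same strand with 883 bases between them, and changed in opposite directions under TMM.

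HIP1 (YGR191W, chromosome VII from 880420 to 882231), the high-affinity histidine permease, was the member that did not pass the threshold. It was at 182.2, 171.8 and 185.9 normalized CPM in glucose and at 209.2, 190.7 and 209.6 in glycerol. The groups did not overlap, but the log2 fold change was only 0.18 (standard error 0.099, adjusted p = 0.114). With library totals alone it was 0.67 (adjusted p = 8.5e-06), so that this call also depends on the scaling. YGR190C overlaps 242 bases of HIP1, and reads of the pair cannot be told apart there. HIS3, which carries a partial deletion in BY4741 and leaves the strain dependent on histidine from the medium, kept counts in every library and had a log2 fold change of -1.15.

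Compared per kilobase of gene, the order of the permeases differed between the conditions. In glucose, BAP2 was at 403 and TAT1 at 244.1 normalized CPM per kilobase, well above the others, and their libraries did not overlap. BAP3, GNP1, HIP1, AGP1, TAT2 and CAN1 followed between 111.0 and 73.1, each overlapping the next in that order in its libraries. DIP5 at 17.4 and GAP1 at 15.7 came last and overlapped each other. In glycerol, BAP2 at 618.8 was followed by DIP5 at 446.9, AGP1 at 345.4 and GAP1 at 229.1 normalized CPM per kilobase, with no overlap between BAP2, DIP5, AGP1 and GAP1. GNP1 at 182.3, TAT1 at 160.7 and CAN1 at 157.8 came next, where GAP1 and GNP1, GNP1 and TAT1, and TAT1 and CAN1 overlapped in their libraries. HIP1 at 112.1, TAT2 at 91.2 and BAP3 at 75.2 came last, each apart from its neighbours. The highest permease was 25.7 times the lowest in glucose and 8.23 times in glycerol, so that the levels lay closer together in glycerol.

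The make-up of the permease transcripts can be read as shares, which do not depend on the scaling between libraries. DIP5 made up 1.39% ± 0.383 of the permease counts per kilobase in glucose and 18.5% ± 1.15 in glycerol (SD over 3 libraries each). The share of GAP1 was 1.26% ± 0.226 in glucose and 9.47% ± 1.25 in glycerol, and that of AGP1 7.78% ± 1.18 and 14.3% ± 0.669. The share of TAT1 was 19.6% ± 2.39 in glucose and 6.65% ± 0.299 in glycerol, and that of BAP3 8.92% ± 0.666 and 3.11% ± 0.329. For each of these 5 genes the libraries of the groups did not overlap. The same held for BAP2, TAT2 and HIP1, whose shares were lower in glycerol, while CAN1 and GNP1 overlapped. The mean share of TAT2 was 6.22% in glucose and 3.77% in glycerol, and that of HIP1 7.98% and 4.64%. Shares add up to the whole, so a share can fall while the transcript rises, as for BAP2 and TAT2. BAP2 made up the largest share in both groups, at 32.4% ± 4.06 in glucose and 25.5% ± 2.2 in glycerol. The SPS-regulated permeases together took 84.9% ± 0.703 in glucose and 79.4% ± 1.87 in glycerol, and the nitrogen-regulated permeases 7.13% ± 0.476 and 16.0% ± 1.76 (SD, n = 3 each). Within the SPS-regulated group DIP5 and AGP1 had higher mean shares in glycerol, and the other 5 had lower ones.

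**Figure D3:**
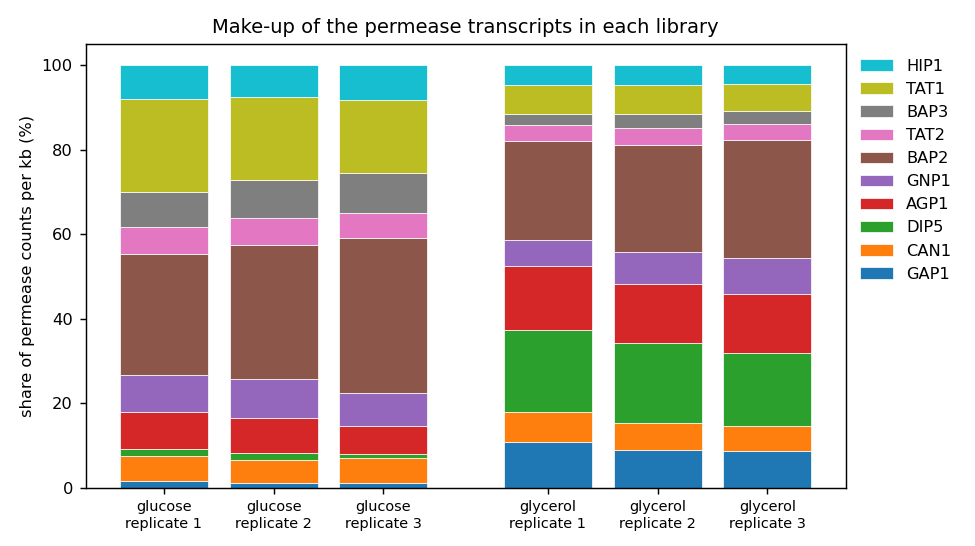
Share of each permease in the summed permease counts per kilobase, in percent, with 1 bar per library. DIP5, AGP1 and GAP1 take more of every glycerol bar than of any glucose bar, and TAT1, BAP3, BAP2, TAT2 and HIP1 take less.

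Ratios between pairs of permeases within a library are likewise free of the scaling. In log2 units of counts per kilobase, AGP1 stood to GNP1 at 0.00, -0.16 and -0.28 in the glucose libraries and at 1.25, 0.87 and 0.69 in the glycerol libraries, a change of 1.08. The ratio of BAP2 to BAP3 was 1.82, 1.78 and 1.96 in glucose and 3.08, 2.89 and 3.14 in glycerol, a change of 1.18. In both of these pairs of close relatives the mean ratio in glycerol was 2.12 times and 2.27 times that in glucose. The ratio of TAT1 to TAT2 changed by -0.83, from a mean of 1.65 to 0.82, and both carry aromatic amino acids. That of GAP1 to CAN1 changed by 2.77 and that of GAP1 to AGP1 by 2.03. For all 5 ratios the groups did not overlap, which gives a two-sided exact permutation p of 0.1, the smallest that 3 against 3 libraries allow, and 0.1 after Benjamini-Hochberg adjustment over the 5. Reads could be shared between close relatives only over short stretches, since the longest run of identical bases was 47 in AGP1 and GNP1 and 22 in BAP2 and BAP3.

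**Figure D4:**
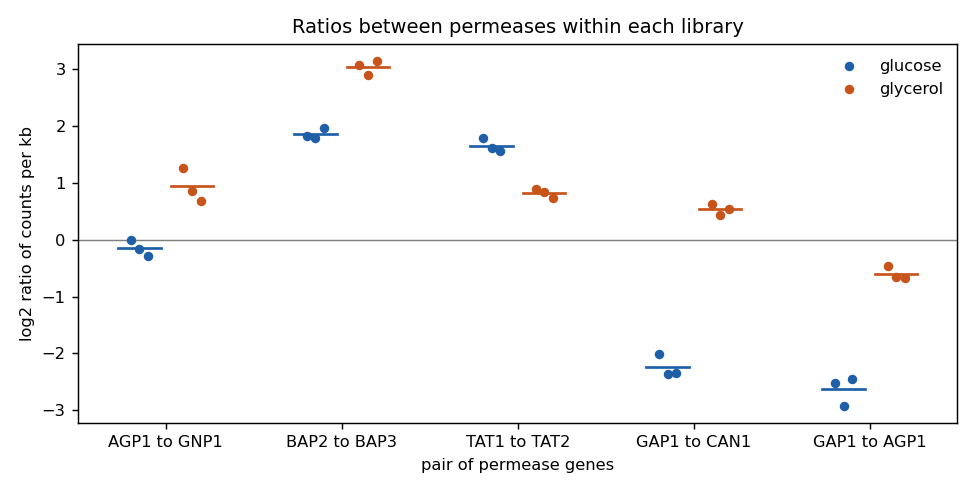
Log2 ratio of counts per kilobase for 5 pairs of permeases, with 1 point per library and a line at the mean of 3 glucose (blue) or 3 glycerol (orange) libraries. The groups are apart for each pair, and the ratio of TAT1 to TAT2 is the one that is lower in glycerol.

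The genes that are known to control the SPS-regulated permeases were measured in the same libraries. Of 10 genes for the SPS sensor and the processing of its factors, 8 were higher in glycerol and 1 was lower, with a median log2 fold change of 0.66. Among all tested genes, 81.8% passed the threshold in either direction and 41.7% were higher. STP2 had the largest rise, from 62.3, 64.3 and 66.0 normalized CPM in glucose to 388.5, 333.3 and 383.8 in glycerol, that is 2.52 on the log2 scale (standard error 0.110, adjusted p = 1.8e-11). STP1 rose by a log2 fold change of 1.19. Of the sensor subunits, PTR3, the adaptor, rose by 1.58 and SSY1, the permease-like receptor, by 0.58 on the log2 scale, while SSY5, the protease that cleaves Stp1 and Stp2, was at 0.10 (adjusted p = 0.381). DAL81, a co-activator of SPS targets, rose by 0.46. ASI1, part of the inner nuclear membrane complex that degrades leftover factor, was lower at -0.57, but at -0.07 (adjusted p = 0.552) with library totals alone. ASI2 and ASI3, of the same complex, were higher at 0.84 and 0.31 on the log2 scale. PTR2, the di- and tripeptide transporter gene and a further SPS target, went from 25.2 ± 2.06 in glucose to 129.3 ± 18.8 in glycerol (normalized CPM, SD, 3 libraries each), which is 2.36 on the log2 scale. Levels of transcripts do not show how much Stp1 or Stp2 was cleaved.

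Most of the genes listed here as under nitrogen catabolite repression rose. Of 16 targets, 15 were higher in glycerol, none was lower and DCG1 was at -0.20 (adjusted p = 0.257, and 0.30 with library totals alone), where 41.7% of all tested genes were higher, and the median log2 fold change was 2.78. The proline permease gene PUT4 was at 4.47, 5.78 and 5.22 normalized CPM in glucose and at 767.2, 787.3 and 899.7 in glycerol, and so at 7.31 on the log2 scale (standard error 0.158, adjusted p = 2.4e-14). PUT1, for the enzyme that begins proline breakdown, followed at 6.71, and MEP2, for the high-affinity ammonium permease, at 4.44. With library totals alone 15 of the 16 were still higher. Of the GATA factors, GAT1, an activator, went from 24.8, 28.5 and 32.3 to 214.7, 195.1 and 235.1 normalized CPM, or 2.91 on the log2 scale (standard error 0.125, adjusted p = 1.5e-11). GLN3, the other activator, rose by 1.45 and the repressor gene GZF3 by 0.92 on the log2 scale. DAL80, a repressor gene that GATA activators switch on, was near the limit of counting in glucose, at 0.0756 to 0.454 normalized CPM, and at 5.61 to 5.93 in glycerol. URE2, for the protein that holds Gln3 in the cytosol, was at 0.06 (adjusted p = 0.583).

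**Figure D5:**
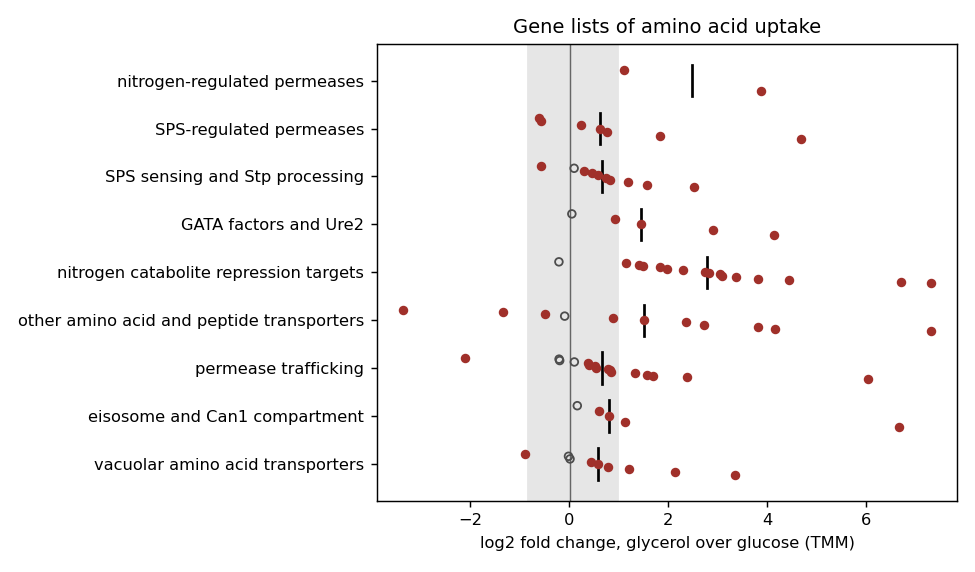
Log2 fold change of glycerol over glucose for each tested gene of 9 lists (filled where the adjusted p is under 0.05, open otherwise), with a black line at each list's median, a thin line at the median of all tested genes and in grey the range between their quartiles. The targets of nitrogen catabolite repression have a median of 2.78, and the SPS-regulated permeases one of 0.62.

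Other transporters of amino acids and peptides at the plasma membrane also moved in both directions, with 7 of 11 higher, 3 lower and a median log2 fold change of 1.52. The shares over all tested genes were 41.7% higher and 40.1% lower. PUT4 and UGA4, the gene of the GABA permease, are in this list and in that of the nitrogen targets. ALP1, a close relative of CAN1, rose from 6.06, 6.96 and 8.77 normalized CPM in glucose to 129.9, 138.7 and 120.3 in glycerol, a log2 fold change of 4.16, and so by more than CAN1 itself. LYP1, the lysine permease gene, was at 279.3 ± 7.14 in glucose and 263.0 ± 6.10 in glycerol (normalized CPM, SD, 3 libraries each), with a log2 fold change of -0.09 (adjusted p = 0.418) that turned to 0.41 with library totals alone. SAM3, for the S-adenosylmethionine permease, fell from 247.6 ± 6.23 in glucose to 24.4 ± 1.44 in glycerol (normalized CPM, SD), a log2 fold change of -3.35. The methionine permease genes MUP3 and MUP1 were lower at -1.32 and -0.49, although MUP1 lay at 0.01 with library totals alone. BY4741 lacks MET17 and depends on a source of methionine in the medium.

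Permeases reach and leave the plasma membrane through a known set of helpers. Of 16 of these genes 12 were higher, 1 was lower and 3 did not pass the threshold, with a median log2 fold change of 0.67. The threshold was passed in either direction by 81.8% of all tested genes, and 41.7% were higher. The one lower gene was SHR3, whose product in the endoplasmic reticulum folds and packages amino acid permeases. It was at 652.5, 716.0 and 561.8 normalized CPM in glucose and at 154.0, 164.6 and 133.1 in glycerol, which is -2.10 on the log2 scale (standard error 0.127, adjusted p = 6.0e-10), and -1.60 with library totals alone. SHR3 thus went in the opposite direction to the summed permease transcripts. NPR1, for a kinase that protects Gap1 from being taken out of the membrane, rose by a log2 fold change of 1.70. RSP5, for the ubiquitin ligase that marks permeases for uptake, was at 0.11 (adjusted p = 0.349). Among the arrestin-related adaptors that guide Rsp5 to its targets, CSR2 rose by 6.03, from 15.3 ± 2.08 to 994.3 ± 105.5 normalized CPM (SD, n = 3 each) and ECM21 by 2.38.

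Eisosomes form the membrane compartment in which Can1 gathers. Of 6 eisosome genes 5 were matched by name, and of these LSP1 did not pass the threshold, at a log2 fold change of 0.17 (adjusted p = 0.320). The other 4 were higher, led by FMP45 at 6.67, NCE102 at 1.13 and PIL1 at 0.80. Beside this count and the next, 41.7% of all tested genes were higher and 81.8% passed the threshold in either direction. Of 12 genes for amino acid transport across the vacuole membrane 10 were matched and 9 tested. Of the 9, 6 were higher, led by RTC2 at 3.36, AVT3 at 2.14 and AVT6 at 1.20. AVT1, for uptake of neutral amino acids into the vacuole, was lower at -0.89. GCN4, for the activator of amino acid synthesis, rose by 0.64 on the log2 scale, and GCN2, for the kinase that senses uncharged tRNA, by 0.30.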

How the data were processed

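Poly(A) RNA of 6 cultures, 3 per carbon source, was sequenced as paired reads without strand information. The deposited table holds the whole-number counts of reads per gene that the authors made, without normalization, per the file headers. The submitters' processing notes name fastp 0.20.1, HISAT2 2.2.1, featureCounts 2.0.1 and DESeq2 with build R64. The 6 FPKM columns of the table were not used, nor were its columns of the authors' own fold changes and p-values. Each library's carbon source and replicate number come from its title in the labels.

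Tests were run with edgeR 4.0.16 under R 4.3.3 (quasi-likelihood test, TMM factors of 0.829 to 0.865 in glucose and 1.18 to 1.20 in glycerol, at least 10 counts in at least 3 libraries) and, as an alternative, DESeq2 1.42.0. Standard errors come from the fold change and its F value. The steps were tested on simulated counts, in which a small part of the genes changed, about as many up as down. Such a setting does not check the scaling where most genes change, as here. Levels per kilobase use the gene lengths of the table. The 10 permeases have the same positions in RefSeq's R64 annotation, from which promoters and coding sequences were read, and coding sequences were aligned over their whole length. Ratios were tested with scipy 1.17.1. Figures were drawn with matplotlib 3.10.9.

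The permeases, the gene lists and their groups were chosen with earlier results of these data known. Named genes are the 10 permeases, a set of sensors, factors and transporters given by name, and up to 3 genes with the largest rise and up to 3 with the largest fall in each list, of which the text describes a part. No pair of replicates agreed within sampling noise (chi-square over degrees of freedom from 16.1 to 62.2), so all 6 libraries were kept as separate samples. No label says what a replicate number shares, and the numbers enter only as an alternative with a replicate block. Other alternatives were other scaling factors, other count minimums and leaving out each library.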

Additional observations from a re-analysis of the deposited data

How the results depend on the processing

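The choice that moved the permeases most was the scaling. With library totals and no composition factor, 0 permeases were lower in place of 2 in edgeR's test (0 also at an unadjusted p under 0.05, and 2 in DESeq2 with its own size factors), the median log2 fold change was 1.11 in place of 0.62 for the SPS-regulated permeases and 2.99 in place of 2.49 for the nitrogen-regulated ones, and 1652 genes were lower in place of 2539. HIP1 then passed the threshold, and BAP3 and TAT1 did not. In the lists around them, 9 of 10 SPS sensing genes were then higher and 0 lower, and 15 of 16 trafficking genes were higher, with SSY5, URE2 and RSP5 among the genes that passed. TAT2 did not pass it with upper-quartile factors, at 0.21 (adjusted p = 0.0694). No permease changed direction under any alternative run. With a library left out, 6 to 7 permeases were higher and 2 lower, and the SPS-regulated median lay between 0.53 and 0.71 and the nitrogen-regulated one between 2.42 and 2.59. With the replicate block, 7 were higher and 2 lower, as without it, and no call of a permease changed. Deviations of same-numbered libraries correlated at 0.112, 0.0428 and 0.105 over all tested genes (0.244, 0.101 and 0.279 over 5667 genes averaging 100 or more counts), and each library correlated best with its own number, a hint from the data and not from the design. All other recomputed counts lay within 1.5 times the main count, among them 3605 genes higher in place of 2637 with library totals alone, and 6 (upper-quartile factors) or 8 (library totals alone) permeases higher in place of 7. The changes of the 5 ratios stayed within the spread between replicates in each alternative run. The library totals limit only the lowest genes, such as DAL80 in glucose.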
